A study of Mus musculus with 10 samples.

Results

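The genes described here are 9 transcripts that glucocorticoid hormone, nutrient supply or cellular stress are known to control: Ddit4, Cited2, Arrdc3, Tsc22d3, Fkbp5, Txnip, Klf9, Sesn1 and Nr3c1. They were selected on earlier fold changes between the genotypes in these libraries and on their known roles, and were taken by symbol from a table of 35725 gene rows, and all 9 were among the 15586 genes with enough reads to be tested. The libraries came from lung eosinophils, granulocytes that gather in allergic airways, sorted from male mice. There were 5 libraries from P2ry14-null mice, which lack the UDP-sugar receptor P2Y14, and 5 from wild-type C57BL/6J mice (WT). All mice, of either genotype, were made allergic by oropharyngeal doses of ovalbumin (50 µg) together with protease from Aspergillus oryzae (20 µg). They inhaled 1% ovalbumin 7 days after the last dose, and eosinophils were sorted 16 h later. The labels name no steroid treatment, and they give neither the age of the mice, nor how the null allele was made, nor whether each library came from a separate mouse. The p-values below therefore measure the spread between these libraries, which may be technical.

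Glucocorticoids act through Nr3c1, the glucocorticoid receptor, which waits in the cytoplasm in a complex with heat shock protein 90 and enters the nucleus when hormone binds. There it switches on genes such as Tsc22d3 and Fkbp5 and restrains inflammatory genes, and this is the basis of steroid treatment in asthma, where eosinophils are among the cells that respond most. Several of the same genes also respond to the supply of glucose, amino acids and growth factors: Ddit4 and Sesn1 encode brakes on mTORC1, the kinase complex that couples nutrients to growth, and Txnip follows intracellular glucose. A transcript of this group can thus change through hormone, nutrients or stress.

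P2ry14, the gene named by the null genotype, had 21.8 to 24.2 CPM (read counts scaled to a library total of 1000000) in the P2ry14-null libraries and 190 to 229 CPM in the WT libraries, in keeping with the labels. Its reads were reduced and not absent in P2ry14-null, at 1630 to 3600 per library. Library totals ran from 67161968 to 185124080 reads, with the lowest in P2ry14-null library 1. Eosinophil markers summed to 8651 to 9291 CPM in P2ry14-null and 8678 to 9144 CPM in WT, with the lipoxygenase Alox15, the eotaxin receptor Ccr3 and the lectin Siglecf the highest of 10. Alox15 alone had 4465 to 5236 CPM, so the sums say little about the scarcer markers. Of the 10, 5 lay higher and 5 lower in P2ry14-null, with log2 fold changes from -0.43 (Prg3) to 0.23 (Epx). P2ry14-null library 2 stood apart in markers of other cells. Its dendritic and B cell markers summed to 442 CPM, against 84.1 to 133 in the other P2ry14-null and 116 to 155 in the WT libraries. Its macrophage and monocyte markers summed to 3302 CPM, against 1708 to 1965 in the other P2ry14-null and 1959 to 2160 in the WT libraries. Adgre1 was the largest part of this sum in the other libraries, at 1385 to 1602 CPM over all libraries. Chil3 had 1520 CPM in P2ry14-null library 2, against 235 to 524 CPM in the others. C1qa had 14.1 CPM there, against 1.31 to 3.31 CPM in the others, and Marco had 0.14 CPM or less in every library. Outside P2ry14-null library 2 these sums thus mainly follow Adgre1 and are no measure of macrophage content. Markers of mast cells and basophils summed to 69.3 to 90.6 CPM in P2ry14-null and 99.7 to 115 CPM in WT. Gata2, Hdc and Kit made up most of these sums, while Mcpt8, Cpa3, Ms4a2, Fcer1a and Cma1 each had 0.78 CPM or less. All 8 lay lower in P2ry14-null on average. Of these 8, edgeR called 0, while DESeq2 and edgeR with the replicate block each called 1, the histamine-forming enzyme gene Hdc (log2 fold change -0.65 ± 0.14, SE). Neutrophil markers summed to 3539 to 5289 CPM in P2ry14-null and 3558 to 4485 CPM in WT, and all 7 tested lay higher on average. Of these 7, 3 were higher at an unadjusted edgeR p under 0.05, as were 1.46% of all genes, and 0 passed adjustment. S100a8 had the largest log2 fold change, 1.01. It had 4.65 CPM in P2ry14-null library 2, against 0.951 to 1.66 CPM in the other P2ry14-null and 0.754 to 1.23 CPM in the WT libraries. Most of these sums was Retnlg, at 3408 to 5104 CPM over all libraries, while Ly6g, S100a8, Mmp8 and Camp each had 4.65 CPM or less. Epithelial, endothelial and stromal markers summed to 209 to 294 CPM in P2ry14-null, with library 2 highest, and to 234 to 254 CPM in WT. Of these 11, 9 lay higher in P2ry14-null on average, with a median log2 fold change of 0.48. That median was 0.05 with P2ry14-null library 2 left out. Pecam1 made up most of these sums, at 201 to 234 CPM over all libraries. The surfactant gene Sftpc had 19.9 CPM in P2ry14-null library 2, against 1.17 to 3.06 CPM in the other P2ry14-null and 1.46 to 2.81 CPM in the WT libraries. T and NK cell markers summed to 6.56 CPM or less in every library. The parts of these cells in the results below were not tested. In bulk samples, fewer cells of a type and less RNA per cell cannot be told apart.

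Promoter windows of 300 bases, from 250 before to 50 after each annotated start, were found for 8 of the 9 genes in RefSeq (GRCm38.p6), all but Nr3c1. Windows of 4 genes are shown, because Cited2 and Ddit4 had the most negative and Arrdc3 the most positive fold change of the group, and because Txnip was its most abundant transcript. In the Txnip window (chr3:96557707-96558006, plus strand) the capitals mark, from 5′ to 3′, a CCAAT box on the reverse strand, the FoxO element GTAAACA, a forward CCAAT box and the tandem carbohydrate response element. In the Arrdc3 window (chr13:80883134-80883433, plus strand) they mark a CCAAT box, in the Cited2 window (chr10:17722978-17723277, plus strand) the E-box CACGTG, and in the Ddit4 window (chr10:59951721-59952020, minus strand) the hypoxia core ACGTG and 2 reverse CCAAT boxes.
Txnip: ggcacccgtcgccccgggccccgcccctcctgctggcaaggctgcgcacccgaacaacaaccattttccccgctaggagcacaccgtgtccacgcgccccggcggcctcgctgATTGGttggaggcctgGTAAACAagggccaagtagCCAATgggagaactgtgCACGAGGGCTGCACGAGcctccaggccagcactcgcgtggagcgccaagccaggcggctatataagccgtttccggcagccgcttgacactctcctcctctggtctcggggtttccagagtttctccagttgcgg
Arrdc3: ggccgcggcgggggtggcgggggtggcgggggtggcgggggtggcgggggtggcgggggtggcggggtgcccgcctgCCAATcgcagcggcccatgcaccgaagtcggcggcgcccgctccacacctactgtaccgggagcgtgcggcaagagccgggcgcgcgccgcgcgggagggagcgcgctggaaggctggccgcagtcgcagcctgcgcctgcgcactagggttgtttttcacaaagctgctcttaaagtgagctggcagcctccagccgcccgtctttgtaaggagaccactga
Cited2: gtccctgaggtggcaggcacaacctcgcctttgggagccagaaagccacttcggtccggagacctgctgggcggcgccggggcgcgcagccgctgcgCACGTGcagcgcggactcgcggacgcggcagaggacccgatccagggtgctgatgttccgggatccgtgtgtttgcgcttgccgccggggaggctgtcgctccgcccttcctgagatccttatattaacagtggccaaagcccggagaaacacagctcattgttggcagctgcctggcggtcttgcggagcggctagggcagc
Ddit4: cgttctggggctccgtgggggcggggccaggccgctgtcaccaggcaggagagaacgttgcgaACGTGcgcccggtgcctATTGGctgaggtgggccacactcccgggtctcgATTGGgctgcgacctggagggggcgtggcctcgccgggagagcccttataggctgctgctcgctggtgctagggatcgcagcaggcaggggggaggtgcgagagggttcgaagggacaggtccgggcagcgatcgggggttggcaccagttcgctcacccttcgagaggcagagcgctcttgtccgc

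The carbohydrate response element is the site through which glucose-sensing MondoA and ChREBP complexes act on Txnip. It was searched on both strands as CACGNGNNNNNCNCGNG, and the Txnip window held it 85 bases before the start as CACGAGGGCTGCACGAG. Of all 32851 windows, 0.365% held this motif, and none of the other 7 genes with a window did. Arrdc3 encodes an alpha-arrestin like Txnip, but its 3 windows held no match. The FoxO element GTAAACA was in 3 of the 13 windows of the 8 genes (Txnip, Klf9 and Sesn1) and in 3.65% of all. The E-box CACGTG was in 2 of the 13 (Cited2 and Fkbp5) and in 7.15% of all. The hypoxia core ACGTG, which every CACGTG also contains, was in 5 of the 13 (Ddit4, Cited2, Arrdc3, Fkbp5 and Klf9) and in 19.6% of all. In Arrdc3 it lay in window 3, which is not shown. The CCAAT box was in 8 of the 13, from 6 genes, and in 37.4% of all. Arrdc3 windows 1 and 2 overlap, so the same CCAAT box counts in both. The full palindromic glucocorticoid response element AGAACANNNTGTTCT was in 0 of the 13 windows of these genes and in 3 of all 32851. Its single arm TGTTCT was in 1 of the 3 Tsc22d3 windows and in 19.0% of all. These are matches of letters in short windows, not measured binding sites. The windows of these genes held 54.3% to 73.0% GC and 15 to 35 CG pairs, apart from 1 Tsc22d3 window (48.7% and 3). Medians over all windows were 52.7% and 7, and the shares above were not matched for this.

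Per kilobase of exon (CPM per kb, with exon lengths from GENCODE vM21), Txnip stood far above the rest. It averaged 462 ± 17.1 CPM per kb in P2ry14-null and 456 ± 78.1 in WT (SD, n = 5 each), rank 73 of 14087 genes with a length. Tsc22d3 ran from 52.9 to 105 CPM per kb over the 10 libraries, Ddit4 from 46.9 to 68.2, Cited2 from 37.1 to 57.7 and Arrdc3 from 34.5 to 57.3, so these 4 overlapped in their ranges. Nr3c1 followed with 17.5 to 25.7, then Sesn1 with 10.5 to 12.2, Fkbp5 with 4.48 to 5.45 and Klf9 with 1.24 to 1.65, and none of these 4 ranges overlapped its neighbour. Arrdc3 was above Cited2 in 4 of 5 P2ry14-null libraries and in 0 of 5 WT libraries.

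**Figure D1:**
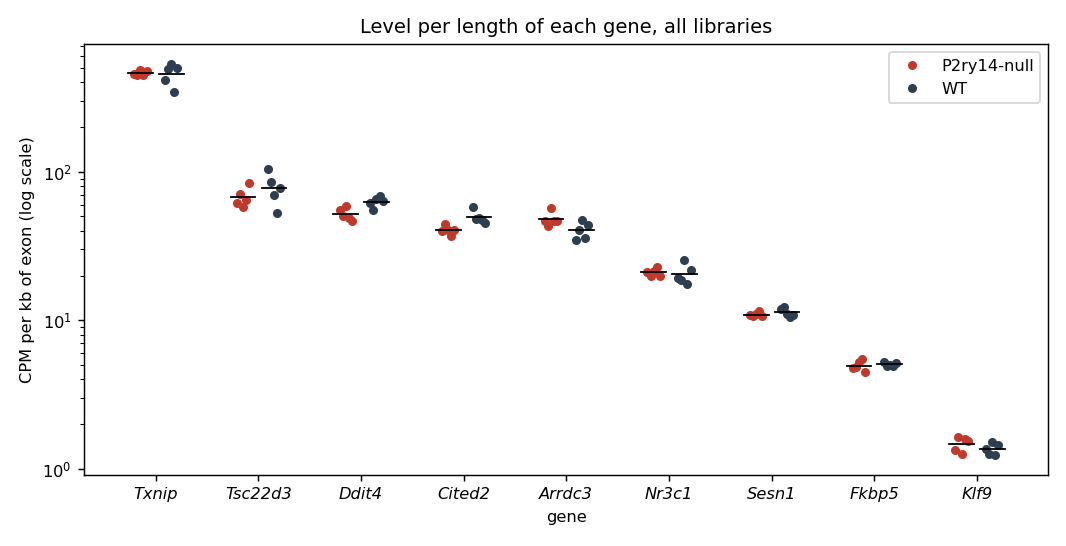
Level of each gene in CPM per kb of exon on a log axis, P2ry14-null (red) left of WT (dark); points are libraries and lines are group means. Txnip lies near 460 in both groups, a middle tier from Tsc22d3 to Arrdc3 overlaps, and Klf9 is lowest.

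Among the 9 genes, Cited2 and Ddit4 had lower means and Arrdc3 a higher mean in P2ry14-null eosinophils, each by under 20%. Tsc22d3 lay 13.0% lower and Klf9 7.94% higher, while Nr3c1, Fkbp5, Txnip and Sesn1 lay within 5% of WT. The genes were chosen with this comparison known, so its values describe them and carry no test here. Over all 15586 genes, edgeR with Benjamini-Hochberg adjustment called 0.0385%, and 0 of these 9. DESeq2 called 0.116% of its 16357 genes with an adjusted p, and also 0 of the 9. At an unadjusted p under 0.05 by edgeR there were 3 of the 9 (Cited2 and Ddit4 lower, Arrdc3 higher), where all genes gave 4.13%, made up of 2.67% lower and 1.46% higher. DESeq2 gave the same 3, where all 25156 genes with a p gave 2.89%. Of the 9, 5 had a negative log2 fold change, as had 48.8% of all genes. The median was -0.03 over the 9 and 0.00 over all genes tested. Fold changes are P2ry14-null minus WT throughout.

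**Figure D2:**
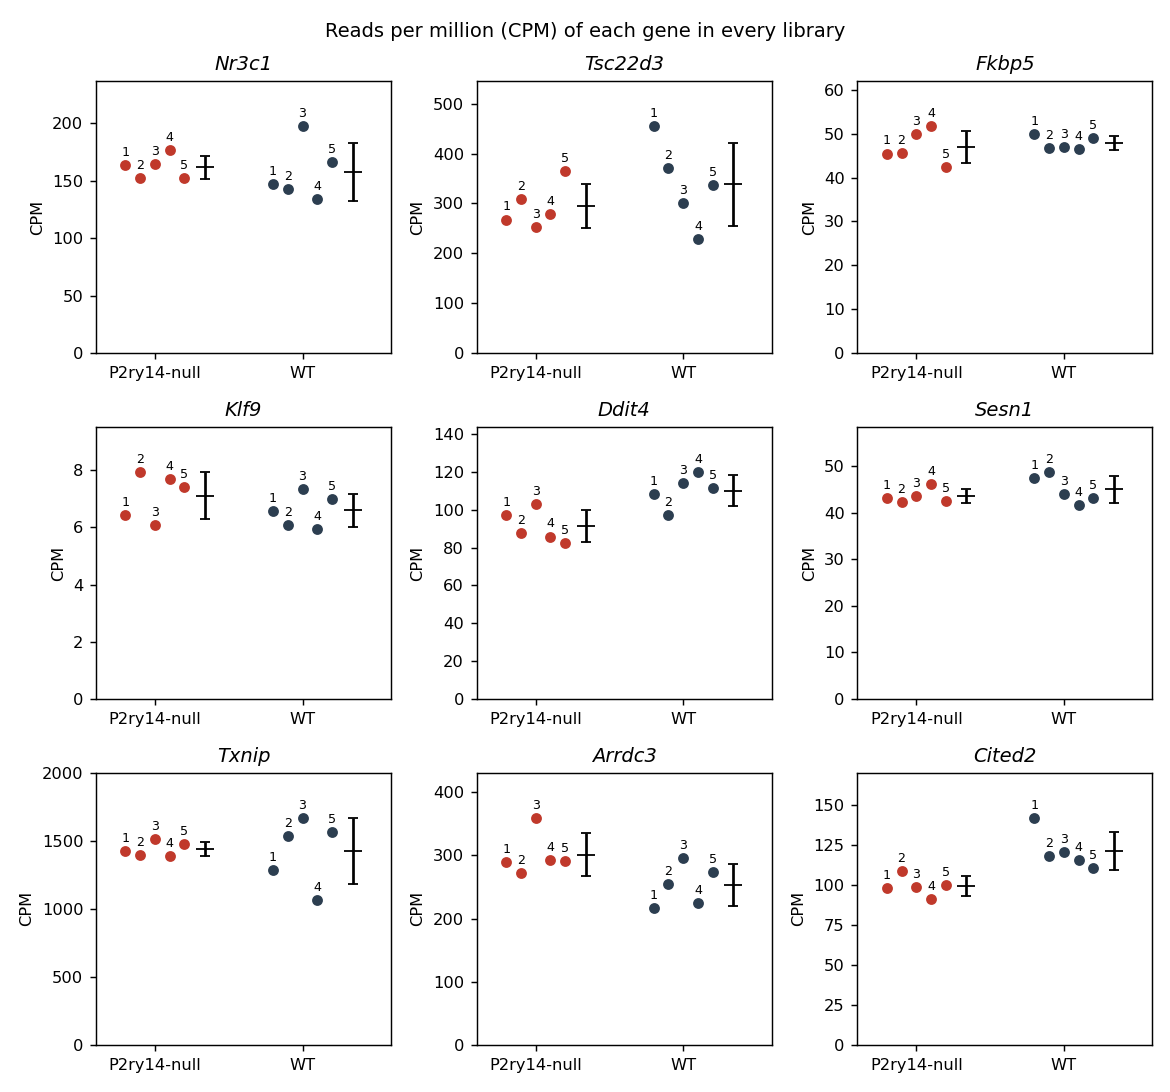
CPM of each gene in every library, P2ry14-null (red) left of WT (dark); numbers are library numbers, and bars are group mean ± SD (n = 5). Cited2 is the gene whose groups do not overlap, while WT libraries spread more widely than P2ry14-null libraries for Txnip, Nr3c1 and Tsc22d3.

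The receptor gene Nr3c1 (gene ID 14815, chromosome 18) was abundant in these cells. P2ry14-null libraries 1 to 5 had 163, 152, 165, 176 and 152 CPM of Nr3c1, and WT libraries 1 to 5 had 148, 143, 197, 134 and 166 CPM. The P2ry14-null values all fell inside the WT range, which WT library 3 set at the top and WT library 4 at the bottom. Means were 162 ± 10.2 CPM in P2ry14-null and 158 ± 25.1 CPM in WT (SD, n = 5 each), a log2 fold change of 0.04 ± 0.09 (SE). The value was 0.13 with WT library 3 left out and turned to -0.0091 with WT library 4 left out.

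Tsc22d3 (gene ID 14605; chrX:140539528-140600522, minus strand of mm10) encodes GILZ, a leucine zipper protein that glucocorticoids induce and that dampens NF-kB and AP-1. P2ry14-null libraries 1 to 5 had 268, 309, 252, 279 and 364 CPM of Tsc22d3, and WT libraries 1 to 5 had 454, 370, 301, 230 and 337 CPM. The groups overlapped, and the highest and the lowest of all 10 values were both WT, in library 1 and library 4. Means were 295 ± 44.2 CPM in P2ry14-null and 338 ± 83.2 CPM in WT (SD, n = 5 each), a log2 fold change of -0.20 ± 0.15 (SE). Leaving out WT library 1 gave -0.07 and leaving out WT library 4 gave -0.31, so single WT libraries set its size. Its spread within groups on the log2 scale, an SD of 0.30, was the largest of the 9 genes and above that of 76.8% of all tested genes.

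Fkbp5 (gene ID 14229; chr17:28398753-28486149, minus strand) encodes FKBP51, a co-chaperone of heat shock protein 90 that lowers the receptor's affinity for hormone and is itself a widely used readout of receptor activity. It ranged from 42.4 to 51.6 CPM in P2ry14-null and from 46.5 to 50.0 CPM in WT, with the WT range inside that of P2ry14-null. Means were 47.0 ± 3.69 CPM in P2ry14-null and 47.9 ± 1.55 CPM in WT (SD, n = 5 each), a log2 fold change of -0.03 ± 0.05 (SE). Leaving out P2ry14-null library 5 gave 0.010, and leaving out P2ry14-null library 4 gave -0.062.

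Klf9 (gene ID 16601; chr19:23141226-23166911, plus strand) encodes a Krüppel-like repressor that glucocorticoids and thyroid hormone induce. It was the scarcest of the group, at 6.09 to 7.93 CPM in P2ry14-null and 5.95 to 7.34 CPM in WT, on 434 to 1331 reads per library. The groups overlapped, with means of 7.11 ± 0.81 CPM in P2ry14-null and 6.59 ± 0.59 CPM in WT (SD, n = 5 each) and a log2 fold change of 0.11 ± 0.09 (SE). Leaving out P2ry14-null library 2, the one with more markers of other cells, gave 0.07, and leaving out P2ry14-null library 3 gave 0.17.

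Ddit4 (gene ID 74747; chr10:59949675-59951770, minus strand) encodes REDD1, which restrains mTORC1 through the TSC complex and is induced by glucocorticoid, hypoxia and energy stress. P2ry14-null libraries 1 to 5 had 97.2, 87.9, 103, 85.8 and 82.4 CPM of Ddit4, and WT libraries 1 to 5 had 108, 97.1, 114, 120 and 111 CPM. P2ry14-null libraries 2, 4 and 5 lay below every WT library, and the groups overlapped through P2ry14-null libraries 1 and 3 and WT library 2. Means were 91.3 ± 8.62 CPM in P2ry14-null and 110 ± 8.43 CPM in WT (SD, n = 5 each), a log2 fold change of -0.27 ± 0.07 (SE), or 17.1% lower. Without P2ry14-null library 2 it was -0.26.

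Sesn1 (gene ID 140742; chr10:41810574-41908436, plus strand) encodes sestrin 1, a p53 and FoxO target that links stress and amino acid supply to mTORC1. It ranged from 42.3 to 46.1 CPM in P2ry14-null and from 41.7 to 48.7 CPM in WT, the smallest spread within groups of the 9 genes. Means were 43.5 ± 1.54 CPM in P2ry14-null and 45.0 ± 2.94 CPM in WT (SD, n = 5 each), a log2 fold change of -0.05 ± 0.05 (SE). Leaving out WT library 2 gave -0.02.

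Txnip (gene ID 56338; chr3:96557957-96561857, plus strand) encodes an alpha-arrestin that binds thioredoxin and limits glucose uptake. P2ry14-null libraries 1 to 5 had 1429, 1399, 1518, 1393 and 1477 CPM of Txnip, and WT libraries 1 to 5 had 1287, 1534, 1670, 1068 and 1565 CPM. All 5 P2ry14-null values lay within the WT range. Means were 1443 ± 53.3 CPM in P2ry14-null and 1425 ± 244 CPM in WT (SD, n = 5 each), a log2 fold change of 0.02 ± 0.10 (SE) that turned to -0.063 with WT library 4 left out and to -0.016 with WT library 1 left out. The coefficient of variation was 3.69% in P2ry14-null and 17.1% in WT. Over the 9 genes, the log2 SD was larger in WT for 6 and in P2ry14-null for 3, and it was larger in WT for 65.3% of all 15586 tested genes. An antisense transcript, Gm15441, shares 606 exon bases with Txnip, and averaged 0.751 CPM in P2ry14-null and 0.767 CPM in WT. No exon of another annotated gene overlapped those of the other 8.

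Arrdc3 (gene ID 105171; chr13:80883422-80896042, plus strand) encodes another alpha-arrestin, which guides the trafficking of beta-adrenergic and other membrane receptors. P2ry14-null libraries 1 to 5 had 290, 271, 359, 293 and 292 CPM of Arrdc3, and WT libraries 1 to 5 had 216, 255, 296, 224 and 274 CPM. All 5 P2ry14-null libraries lay above the WT mean, P2ry14-null library 3 was far above the other 9, and the groups overlapped through WT libraries 3 and 5. Means were 301 ± 33.7 CPM in P2ry14-null and 253 ± 33.7 CPM in WT (SD, n = 5 each), a log2 fold change of 0.25 ± 0.09 (SE), or 19.0% higher. Leaving out P2ry14-null library 3 gave 0.19, and leaving out P2ry14-null library 2 gave 0.29.

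Cited2 (gene ID 17684; chr10:17723228-17725674, plus strand) encodes a co-regulator that binds CBP and p300 and limits transcription by hypoxia-inducible factor. P2ry14-null libraries 1 to 5 had 98.3, 109, 98.9, 91.2 and 99.9 CPM of Cited2, and WT libraries 1 to 5 had 142, 118, 120, 116 and 110 CPM. The highest P2ry14-null value lay just below the lowest WT value, so the groups did not overlap, as in 1 of the 9 genes and 0.648% of all genes. Means were 99.4 ± 6.32 CPM in P2ry14-null and 121 ± 12.1 CPM in WT (SD, n = 5 each), a log2 fold change of -0.29 ± 0.07 (SE), or 18.1% lower. Leaving out WT library 1, which had the most Cited2, gave -0.23, and leaving out P2ry14-null library 2 gave -0.32.

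**Figure D3:**
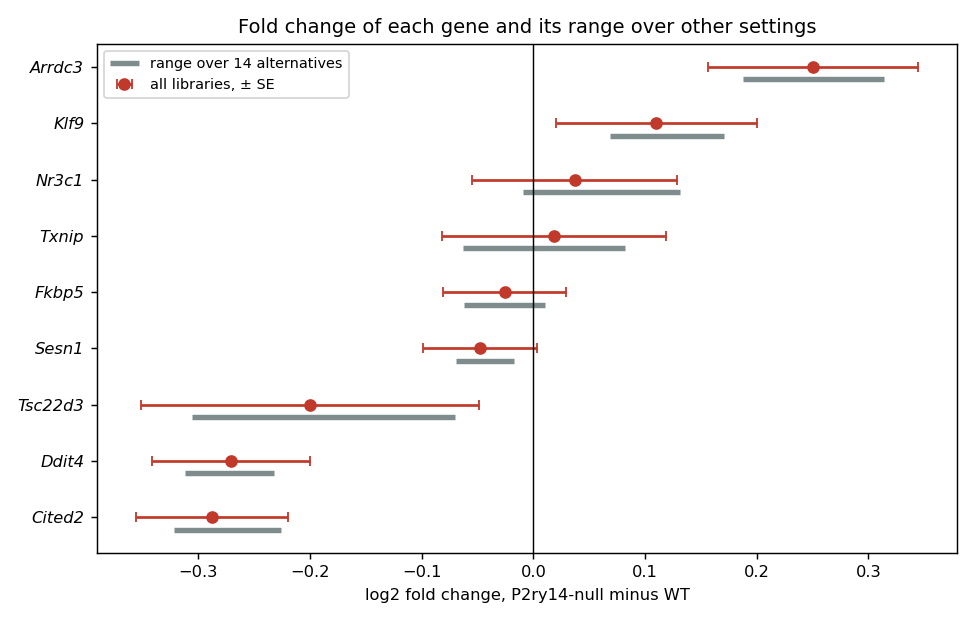
Log2 fold change of each gene, P2ry14-null minus WT, as points with SE bars, with grey bars for the range over 14 other settings. The ranges of Txnip, Nr3c1 and Fkbp5 cross 0, while all other genes keep their sign over the whole range.

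The genes were chosen on the difference between genotypes and on their known roles, and not on how libraries of 1 genotype vary. It was therefore asked whether they varied together within genotypes, a question on which their shared roles may bear. Log2 CPM values were centred on their group mean, and each of the 36 pairs was tested over the 10 libraries by a two-sided exact permutation within groups (14400 assignments). No pair passed with Benjamini-Hochberg adjustment over the 36, and 2 had an unadjusted p under 0.05; 20 of the 36 correlations were above 0. By rank correlation, too, 0 pairs passed the adjustment.

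Txnip and Arrdc3, both alpha-arrestin genes, had the smallest p of the 36. Pearson's r was 0.77 (exact permutation p = 0.0106, adjusted p = 0.38) and Spearman's rho was 0.84 (exact permutation p = 0.0119, adjusted p = 0.215). WT library 3 was high for both and WT libraries 1 and 4 low for both. Without P2ry14-null library 3 and WT library 3, the farthest in Arrdc3, r was 0.79 (exact permutation p = 0.184).

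Ddit4 and Tsc22d3, both glucocorticoid-induced genes, ran in opposite directions. Pearson's r was -0.70 (exact permutation p = 0.0275, adjusted p = 0.495) and Spearman's rho was -0.79 (exact permutation p = 0.0108, adjusted p = 0.215). WT library 4 had the most Ddit4 and the least Tsc22d3 of the WT group, and P2ry14-null library 5 the least Ddit4 and the most Tsc22d3 of its group. Without P2ry14-null library 3 and WT library 2, r was -0.75 (exact permutation p = 0.0156).

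**Figure D4:**
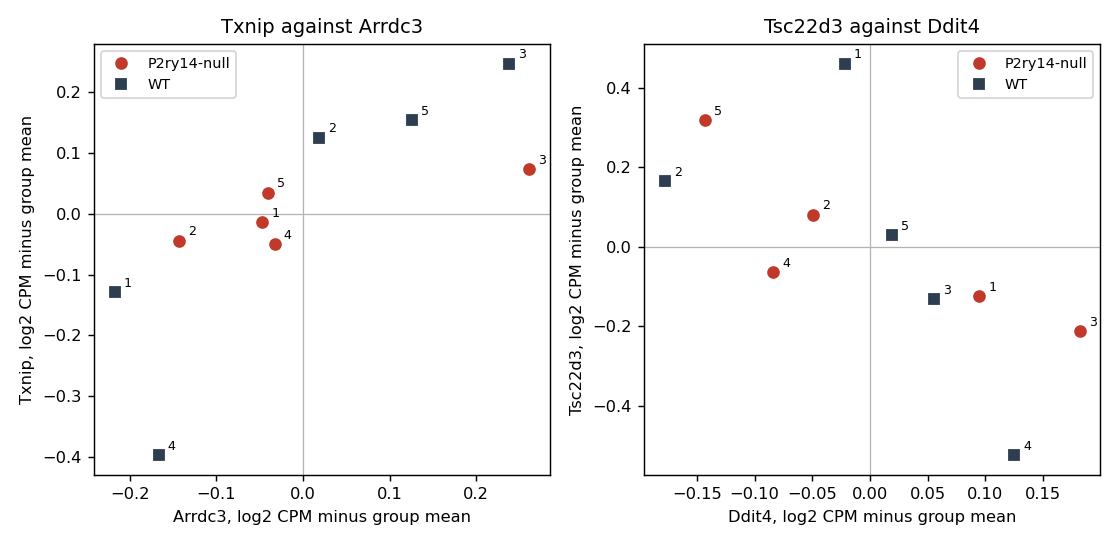
Deviation of log2 CPM from the group mean for Txnip against Arrdc3 (left) and Tsc22d3 against Ddit4 (right), 1 point per library, P2ry14-null as red circles and WT as dark squares, numbered by library. The left panel slopes upward (r = 0.77) and the right panel downward (r = -0.70); neither passed adjustment over 36 pairs.

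The receptor gene gave no correlation past the threshold with its best known targets. Nr3c1 gave r = -0.10 with Tsc22d3 (exact permutation p = 0.847), 0.33 with Fkbp5 (exact permutation p = 0.198) and 0.47 with Klf9 (exact permutation p = 0.143), each with an adjusted p of 0.707 or more. Tsc22d3 and Fkbp5 gave r = -0.10 with each other (exact permutation p = 0.746, adjusted p = 0.977). With Arrdc3, Nr3c1 gave r = 0.69 (exact permutation p = 0.0536, adjusted p = 0.643). With Txnip it gave r = 0.68 (exact permutation p = 0.11, adjusted p = 0.707), which rested on WT libraries 3 and 4, since r was 0.17 without them. With 10 libraries these tests cannot show that 2 genes are unrelated.

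**Figure D5:**
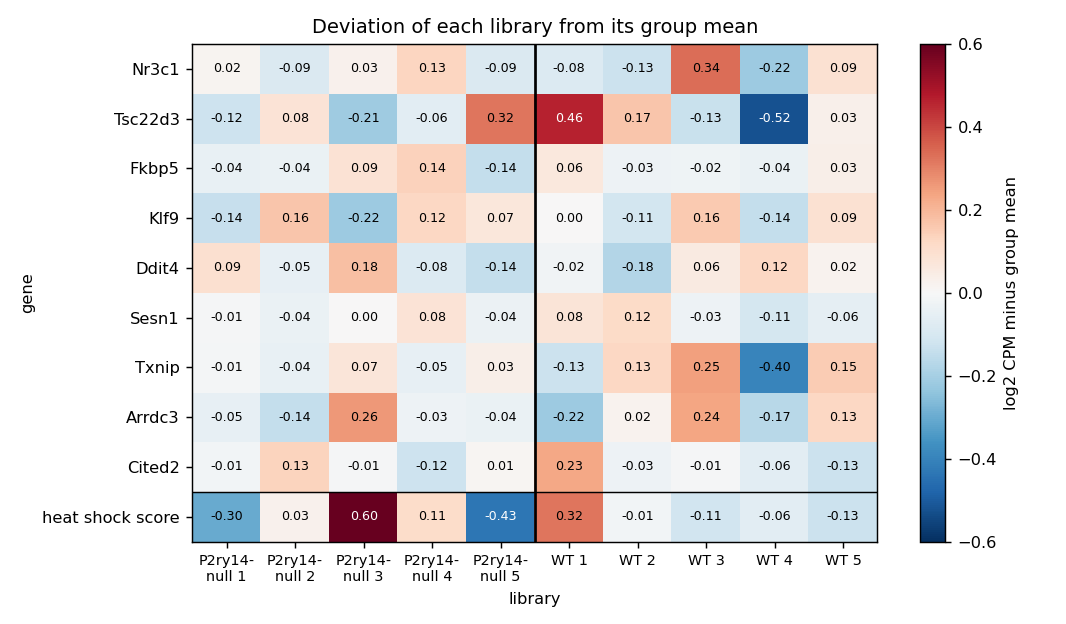
Log2 CPM of each gene minus its group mean in each library, P2ry14-null left of WT, with the mean of 10 heat shock genes in the bottom row; red is above and blue below the group mean. WT library 4 is low for Tsc22d3, Txnip and Nr3c1, WT library 1 high for Tsc22d3, and P2ry14-null library 3 high for Arrdc3 and for heat shock genes.

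Heat shock genes, which report protein stress and include partners of the receptor complex, had lower means in P2ry14-null for all 10 listed, and the median log2 fold change was -0.48. An unadjusted edgeR p under 0.05 in that direction was reached by 9, where 2.67% of all genes did so, and 0 passed the adjusted threshold in edgeR. DESeq2 called 1, the co-chaperone gene Dnajb1. The heat shock score, the mean log2 CPM of the 10, ran from 3.12 to 4.15 in P2ry14-null and from 4.10 to 4.55 in WT. Within groups, of 9 members tested against this score 0 passed adjustment, and Fkbp5 was closest, with Pearson's r = 0.76 (exact permutation p = 0.0454, adjusted p = 0.409) and Spearman's rho = 0.76 (exact permutation p = 0.0558). Without P2ry14-null libraries 3 and 5 its r was 0.63 (exact permutation p = 0.214). For Cited2, Ddit4 and Arrdc3, r with the score was 0.28 (exact permutation p = 0.377), 0.36 (exact permutation p = 0.393) and 0.18 (exact permutation p = 0.622). Without P2ry14-null libraries 3 and 5 these were 0.57 (exact permutation p = 0.172), -0.49 (exact permutation p = 0.207) and -0.57 (exact permutation p = 0.115), so for Ddit4 and Arrdc3 the sign rested on those libraries. The part of handling stress in the values of the 9 genes was not tested.

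Other genes of the same pathways were taken from lists and are named by abundance. In the lists of this and the next paragraph, edgeR and DESeq2 called 0 genes at the adjusted threshold, and counts at an unadjusted edgeR p under 0.05 are given for each. Over all tested genes 4.13% had such a p, 2.67% lower and 1.46% higher. Of 23 other glucocorticoid-induced genes 1 had such a p (median log2 fold change -0.05). Dusp1, a phosphatase that shuts off MAP kinases, had 7597 ± 643 CPM in P2ry14-null and 7712 ± 533 CPM in WT (SD, n = 5 each), the highest level of that list. Nfkbia, the inhibitor of NF-kB, had 2586 ± 242 CPM in P2ry14-null and 3144 ± 360 CPM in WT, and was that 1 gene. Cebpb, a transcription factor of myeloid cells, had 2469 ± 155 CPM in P2ry14-null and 2644 ± 316 CPM in WT. Of 16 partners of the receptor (median -0.17) 3 had such a p, all lower and all chaperone genes. They were Hsp90ab1 (log2 -0.46 ± 0.16, SE), Hsp90aa1 (-0.55 ± 0.17) and Stip1 (-0.45 ± 0.17), the last 2 chosen after their values were seen. Hsp90aa1 is also among the heat shock genes above, so it counts in both lists. The co-repressor Ncor1 (0.07 ± 0.09) and the co-activator Ncoa3 (0.04 ± 0.07) were the next most abundant partners.

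Of 21 genes of mTORC1 sensing and control, the pathway that Ddit4 and Sesn1 restrain, 1 had an unadjusted p under 0.05 (median 0.01), the mTOR subunit gene Mlst8 at 0.19 ± 0.06, named for that value. The most abundant were the GTPase gene Rragc (-0.01 ± 0.05), Tsc2 (0.02 ± 0.06), which receives the REDD1 signal, and the translation repressor Eif4ebp1 (-0.10 ± 0.07). Of 16 FoxO-responsive genes 1 had such a p (median 0.00), and Trib1, Ccng2 and Cat lay between -0.08 and -0.01. Of 13 genes of the arrestin family and glucose sensing 1 had such a p (median -0.07), with the glucose transporter Slc2a3 at 0.10 ± 0.05 and the beta-arrestins Arrb2 and Arrb1 at -0.07 ± 0.05 and 0.03 ± 0.06. Of 12 paralogues of the 9 genes 0 had such a p (median 0.00; Klf6 -0.01, Klf13 0.00, Tsc22d4 0.01). Of 11 partners of CITED2 in the hypoxia response 1 had such a p (median 0.01), with Hif1a at -0.03 ± 0.08, its target Vegfa at -0.19 ± 0.14 and Ep300 at 0.02 ± 0.09. Of 15 amino acid and p53 stress genes 3 had such a p, all lower (median -0.03). Fold changes in this list ran from -0.65 (Asns) to 0.34 (Chac1), both named for these values. Its most abundant genes were Btg2 at 0.05 ± 0.08, Atf4 at -0.22 ± 0.11 and Ppp1r15a at -0.12 ± 0.13.

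The genes whose centred profile over the 10 libraries was most like that of each member are given as a description, since each was picked as the best of all genes compared. Among genes of at least 5 CPM they were Slc25a24 for Nr3c1 (r = 0.97), Gpr183 for Tsc22d3 (0.94), Chek2 for Fkbp5 (0.95), Rab31 for Klf9 (0.91), Fip1l1 for Ddit4 (0.95), Rps27l for Sesn1 (0.97), Flcn for Txnip (0.97), Arl4c for Arrdc3 (0.95) and Cd3eap for Cited2 (0.96). For Txnip the next were Neat1 (0.96) and Zfp866 (0.95), and for Arrdc3 they were Rgs2 (0.93) and Gtpbp2 (0.91).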

How the data were processed

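RNA of sorted lung eosinophils was sequenced in 10 libraries, 5 per genotype. Libraries were Illumina TruSeq, per the labels' protocols. The deposited table holds raw counts of reads per gene as whole numbers, with mm10 coordinates. The submitters' processing notes name STAR 2.5, featureCounts 1.5.0-p1 from Subread, and DESeq2. Annotation, strandedness of counting and handling of multi-mapping reads were not given in the sources used here, so reads of overlapping antisense genes cannot be told apart.

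Groups and library numbers came from the sample titles. A quasi-likelihood fit in edgeR 4.0.16 (R 4.3.3) took genotype as its only term, after TMM scaling and the default low-count filter. P-values from its F test were adjusted over all 15586 tested genes (Benjamini-Hochberg, threshold 0.05). CPM uses TMM-scaled library sizes, log2 CPM a prior count of 2, and the SE of a fold change is its size divided by the square root of F. DESeq2 1.42.0, its size factors in edgeR, no low-count filter, a replicate block and leaving out single libraries were alternatives. Correlations used exact permutation within groups (Python 3.11.15, numpy 2.4.6). Exon lengths and overlaps came from GENCODE vM21 and promoter windows from RefSeq GRCm38.p6. Any 2 libraries of a group differed by 23.2 or more in chi-square per gene, so none agreed within sampling noise.

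The members and gene lists were chosen with earlier results of these data known. From each list the 3 genes with the highest mean CPM were named, and others only where said. Motifs were chosen after the fold changes were seen.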

Additional observations from a re-analysis of the deposited data

Results flagged for a closer look

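In 36 sets of 5 values (each gene, P2ry14, the heat shock score and 7 marker sums in each genotype), 4 had an end value whose gap to the next was above Dixon's 95% critical value of 0.71 of the range, where chance gives about 1 in 20. Arrdc3 in P2ry14-null library 3 was 359 CPM, against 271 to 293 in the other 4. The heat shock score in WT library 1 was 4.55, against 4.10 to 4.21 in the other 4. The summed macrophage and monocyte markers of P2ry14-null library 2 were 3302 CPM, against 1708 to 1965 in the other 4. Its summed dendritic and B cell markers were 442 CPM, against 84.1 to 133.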

How the results depend on the processing

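Of the 9 genes, 6 kept the sign of their fold change under all 14 alternatives, and no gene was called under any of them, at adjusted p-values of 0.0836 (Cited2, DESeq2) or more. The sign turned for Fkbp5 without P2ry14-null library 5 (0.010), for Txnip without WT library 1 (-0.016) or 4 (-0.063), and for Nr3c1 without WT library 4 (-0.0091); the cause was not tested. The ranges without single libraries were -0.062 to 0.010 for Fkbp5, -0.063 to 0.082 for Txnip and -0.0091 to 0.13 for Nr3c1. Over all genes, the count of calls was 6, 19 with DESeq2 and from 3 to 5 without single libraries. With the replicate number as a block it was 6, and 0 of the 9 genes were called. Deviations of libraries with the same number correlated at -0.0933 to 0.094, and 1 of 5 P2ry14-null libraries correlated best with its own number, so the block is an alternative only. No correlation among the 36 pairs, or with the heat shock score, passed adjustment under the 13 alternatives tried for each. Groups of 5 limit what could be called, and Klf9, at 434 to 1331 reads per library, had the fewest reads.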
